A study of Homo sapiens with 6 samples.

Results

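The genes of nucleoside uptake, dephosphorylation and breakdown followed here were 10 of the 23619 gene symbols listed for each library: the transporter genes SLC29A1, SLC29A2 and SLC29A3, the 5′-nucleotidase genes NT5C, NT5C2 and NT5E, the dNTP hydrolase gene SAMHD1, the deaminase genes ADA and DCTD, and the phosphorylase gene PNP. They were chosen by their known roles, although earlier results of these data were known at that point. RNA from 3 fludarabine-resistant pools and 3 control pools of HG3 cells was compared, with 1 library per pool and group and the numbers 17, 18 and 28 in both groups. HG3 is an established lymphoblastoid line, a B cell line derived from chronic lymphocytic leukaemia. The comparison, part of a study of transposon mutagenesis, addresses how far the transcriptome of resistant cells departs from that of the parental cells. The titles call the resistant libraries treated, but the sources used here do not say whether fludarabine was in the medium at harvest, how many clones a pool held, or which insertions it carried.

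Fludarabine is an adenosine analogue. It enters cells through nucleoside transporters, chiefly the equilibrative ones encoded by the SLC29 family, and becomes active only after deoxycytidine kinase, DCK, has added the first phosphate. 5′-Nucleotidases can take that phosphate off again, SAMHD1 cleaves deoxynucleoside triphosphates to the nucleoside and triphosphate, and adenosine deaminase and purine nucleoside phosphorylase break down natural purine nucleosides on the salvage pathway. Fludarabine itself is a poor substrate of adenosine deaminase.

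The values were FPKM, fragments per kilobase of transcript, scaled to the mapped fragments of a library, so levels can be compared between genes. Between 10936 and 11331 genes reached an FPKM of 1 in a library, and relative depth, read from the steps between low values, ran from 1 in control 17 to 1.31 in resistant 28. All 9 B cell markers were at an FPKM of at least 1 in the 6 libraries, with sums of 1330 to 1968 in resistant and 1241 to 1805 in control libraries. The 4 erythroid and 4 fibroblast markers stayed under 1 in all 6, and so did 5 of 6 T cell markers (all but CD5, which chronic lymphocytic leukaemia cells also carry), 3 of 4 NK cell markers (all but NKG7), 4 of 6 myeloid markers (all but CSF1R and ITGAM) and 2 of 3 endothelial markers (all but PECAM1, at 1 or more in all 6). Summed FPKM was 5.07 to 22.7 in resistant and 12.4 to 19.4 in control libraries for T cell markers, and 0.257 to 1.63 in resistant and 0.712 to 1.52 in control libraries for NK cell markers. For myeloid markers, of which FCGR3A was at 0 throughout, it was 2.41 to 8.22 in resistant and 2.38 to 3.36 in control libraries, and for endothelial markers 1.97 to 5.47 in resistant and 3.54 to 5.90 in control libraries. Their part in the results was not tested. Resistant 18 stood apart: in a fit with array weights it had a weight of 0.162, against 1.45 to 1.89 for the other resistant libraries and 1.03 to 1.93 for the controls.

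None of the genes passed the test across all genes. Of the 10, 8 reached an FPKM of 1 in at least 3 libraries and were tested, and 0 of these 8 passed limma's adjusted threshold of 0.05, where 4 of 11307 genes did (0.0354%). The 2 left out were SLC29A2 and SLC29A3. Of the 8, 1 (DCTD) had an unadjusted p under 0.05, and its value was lower in resistant pools. Over all tested genes 13.1% had such a p, 5.99% with higher and 7.14% with lower values in resistant libraries. The median log2 difference between resistant and control libraries, on log2(FPKM + 1), was 0.02 over the 8 genes and 0.01 over all genes tested. The count of 0 held in each of the 17 other settings tried, those without resistant 18 or pool 18 included.

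Of the 8 tested genes, 4 had the same direction in all 3 pools. SAMHD1 and NT5C2 were higher in the resistant library of all 3 pools (2 of 8, where 18.9% of all tested genes were), and DCTD and ADA were lower in all 3 (2 of 8, against 18.7%). Resistant and control libraries did not overlap for SAMHD1, which was higher in resistant libraries (1 of 8, against 10.1%), and for DCTD, which was lower (1 of 8, against 11.1%). These shares were near those of all genes. Within single pools the sets differed. By over 0.5 on the log2 scale, SLC29A1 and NT5C were higher in resistant 17 than in control 17 (2 of 8, against 9.94% of all tested genes) and none was lower (9.3%). In pool 18, NT5C2 and PNP were higher in the resistant library (2 of 8, against 21.3%) and SLC29A1, NT5E and DCTD lower (3 of 8, against 19.7%). In pool 28, NT5C was higher (1 of 8, against 15.7%) and NT5E lower (1 of 8, against 15.8%). With 1 library per group, these counts within a pool carry no test.

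**Figure D1:**
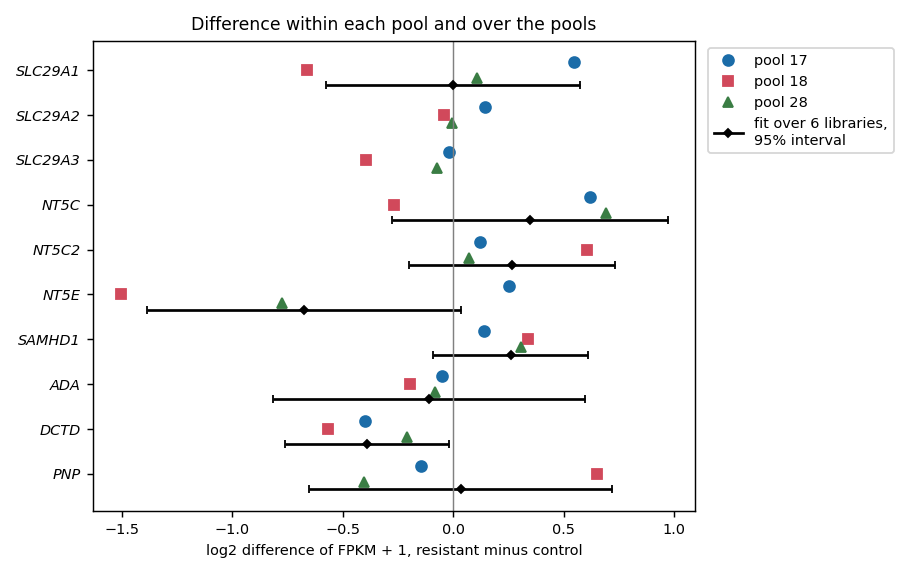
Log2 difference of FPKM + 1, resistant minus control, for each of the 10 genes (rows), within pools 17 (circles), 18 (squares) and 28 (triangles), with the limma estimate over the 6 libraries and its 95% interval (diamonds and bars, 8 tested genes). All 3 pools lie to the right of 0 for SAMHD1 and NT5C2 and to the left for DCTD, ADA and the untested SLC29A3, while pool 18 and pool 17 lie on opposite sides for SLC29A1, NT5C, NT5E, PNP and the untested SLC29A2.

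SLC29A1, which encodes ENT1, the main equilibrative nucleoside transporter of the plasma membrane, supplied nearly all the transcript of the SLC29 genes followed here. It had 37.6, 20.4 and 27.7 FPKM in resistant 17, 18 and 28, and 25.4, 32.8 and 25.7 FPKM in control 17, 18 and 28. Resistant 17 held the highest value and resistant 18 the lowest, so the resistant libraries enclosed the controls. By pool, SLC29A1 differed between resistant and control by 0.55 (pool 17), -0.66 (pool 18) and 0.11 (pool 28) on the log2 scale. Across the 6 libraries, the estimate for SLC29A1 was -0.0017 (SE 0.24, limma adjusted p = 0.9999). Its 95% interval ran from -0.58 to 0.57 and so spans differences of up to that size in either direction. The estimate was 0.21 without resistant 18 (adjusted p = 0.517).

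The other 2 equilibrative transporter genes were close to the floor. SLC29A3, whose product ENT3 lies in lysosomal and mitochondrial membranes, had 0.427, 0.137 and 0.484 FPKM in resistant 17, 18 and 28, and 0.448, 0.493 and 0.559 FPKM in control 17, 18 and 28. SLC29A2, which encodes ENT2, had 0.135, 0.0260 and 0.0432 FPKM in resistant 17, 18 and 28, and 0.0283, 0.0550 and 0.0454 FPKM in control 17, 18 and 28. Multiplied by relative depth, those 6 values were whole multiples of 1 step: 5, 1 and 2 steps in resistant 17, 18 and 28, and 1, 2 and 2 steps in control 17, 18 and 28. If a step is 1 fragment, the apparent excess in resistant 17 rests on 5 fragments (95% Poisson interval 1.62 to 11.7, for counting error only), and no difference between the groups was detectable at this depth. SLC29A1 made up 98.6 ± 0.544% of the summed FPKM of the 3 genes in resistant libraries and 98.1 ± 0.338% in control libraries (SD, n = 3 each).

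Of the 3 5′-nucleotidase genes, NT5C and NT5C2 averaged higher in resistant libraries and NT5E lower, and none passed the test. NT5C encodes a cytosolic enzyme that removes the phosphate from deoxyribonucleoside monophosphates. It had 49.3, 27.6 and 35.6 FPKM in resistant 17, 18 and 28, and 31.8, 33.4 and 21.6 FPKM in control 17, 18 and 28. Resistant 17 and 28 lay above all 3 controls and resistant 18 lay between them. By pool, NT5C differed between resistant and control by 0.62 (pool 17), -0.27 (pool 18) and 0.69 (pool 28) on the log2 scale. Across the 6 libraries, the estimate for NT5C was 0.35 (SE 0.26, 95% interval -0.28 to 0.97, adjusted p = 0.607). Without pool 18 it was 0.66 (unadjusted p = 0.0495, adjusted p = 0.274), without resistant 17 it was 0.14, and without control 28 it was 0.16.

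NT5C2, the cytosolic purine 5′-nucleotidase that prefers IMP and GMP, was almost flat outside resistant 18. It had 14.0, 20.6 and 13.0 FPKM in resistant 17, 18 and 28, and 12.8, 13.2 and 12.3 FPKM in control 17, 18 and 28. By pool, NT5C2 differed between resistant and control by 0.12 (pool 17), 0.61 (pool 18) and 0.07 (pool 28) on the log2 scale. The limma estimate for NT5C2 was 0.27 (SE 0.20, adjusted p = 0.60). Without resistant 18 it was 0.07. In RefSeq on GRCh38.p14 NT5C2 overlaps CNNM2, NT5C overlaps ARMC7 and SAMHD1 overlaps C20orf118. The sources used here do not say whether the libraries kept the strand, so reads in the shared stretches cannot be told apart. CNNM2 had 5.85 ± 2.82 FPKM in resistant and 9.29 ± 0.448 in control libraries, ARMC7 had 4.53 ± 0.594 in resistant and 3.93 ± 0.220 in control libraries, and C20orf118 had 0.174 ± 0.193 in resistant and 0.198 ± 0.129 in control libraries (SD, n = 3 each).

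NT5E, which encodes the membrane-bound ectonucleotidase CD73 that makes adenosine outside the cell, had the largest difference of the 8 tested genes. It had 7.80, 3.47 and 5.16 FPKM in resistant 17, 18 and 28, and 6.39, 11.7 and 9.55 FPKM in control 17, 18 and 28. Resistant 18 and 28 lay below all 3 controls, but resistant 17 lay above control 17. The mean was 5.48 ± 2.18 FPKM in resistant and 9.21 ± 2.66 FPKM in control libraries (SD, n = 3 each), 1.68-fold lower in resistant libraries. By pool, NT5E differed between resistant and control by 0.25 (pool 17), -1.51 (pool 18) and -0.78 (pool 28) on the log2 scale. Across the 6 libraries, the estimate for NT5E was -0.68 (SE 0.30, 95% interval -1.39 to 0.03, unadjusted p = 0.0591, adjusted p = 0.395). Without pool 17 it was -1.14 (unadjusted p = 0.00729, adjusted p = 0.388) and without pool 18 it was -0.26.

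NT5E took a smaller share of the 3 nucleotidase transcripts in resistant libraries, a share that depends on NT5C and NT5C2 too. Its share of their summed FPKM was 11.0%, 6.71% and 9.59% in resistant 17, 18 and 28, and 12.6%, 20.03% and 21.9% in control 17, 18 and 28. These ranges did not overlap, although pool 17 differed by little and the FPKM of NT5E itself overlapped between the groups. In pool 17 NT5E was higher in the resistant library (7.80 against 6.39 FPKM), and its share was lower beside a higher NT5C (49.3 against 31.8 FPKM). NT5C held the largest share in all 6 libraries, 53.4% to 69.4% in resistant and 49.7% to 62.4% in control libraries. No test was run on these shares, and how often shares of other genes separate the groups was not computed.

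**Figure D2:**
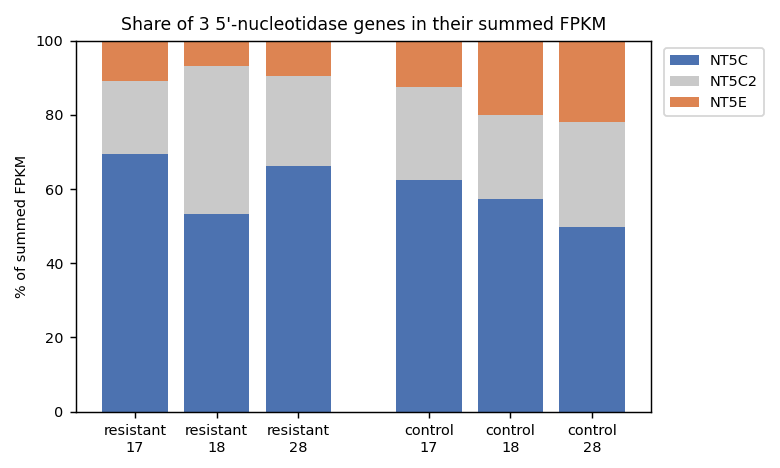
Share of NT5C, NT5C2 and NT5E in their summed FPKM (percent, stacked bars) in the 3 resistant and the 3 control libraries. NT5E takes 6.71% to 11.0% in resistant and 12.6% to 21.9% in control libraries, and NT5C2 takes its largest share, 39.9%, in resistant 18.

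SAMHD1 and DCTD were the 2 genes whose resistant and control libraries did not overlap, 1 of 8 in each direction. That was near the shares over all tested genes (10.1% higher and 11.1% lower). SAMHD1 removes deoxynucleoside triphosphates and is known to inactivate some nucleoside drugs in their triphosphate form, and DCTD, the dCMP deaminase, feeds deoxyuridine monophosphate to thymidylate synthesis. The 250 bases before their annotated starts are shown, from RefSeq on GRCh38.p14 and on the minus strand, because these 2 genes differed in opposite directions in all 3 pools. Capitals mark matches on either strand to a CCAAT box (CCAAT) or a GC box (GGGCGG). DCTD has a second annotated start, whose window is not shown. SAMHD1 lies at chr20:36951709-36951958 and DCTD at chr4:182917612-182917861.
SAMHD1: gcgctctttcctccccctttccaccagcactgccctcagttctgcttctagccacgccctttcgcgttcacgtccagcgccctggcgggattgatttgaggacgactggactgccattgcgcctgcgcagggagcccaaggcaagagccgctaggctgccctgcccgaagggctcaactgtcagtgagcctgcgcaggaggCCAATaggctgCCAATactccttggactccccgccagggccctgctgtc
DCTD: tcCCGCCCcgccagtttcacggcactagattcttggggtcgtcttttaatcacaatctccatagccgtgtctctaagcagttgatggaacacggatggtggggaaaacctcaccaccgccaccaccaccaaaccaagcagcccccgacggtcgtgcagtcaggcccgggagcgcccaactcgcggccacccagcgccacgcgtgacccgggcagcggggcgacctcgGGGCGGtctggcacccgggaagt
The SAMHD1 window held 2 CCAAT boxes and no GC box, and the DCTD window 2 GC boxes and no CCAAT box. Of 35116 RefSeq windows of this length, 32.0% held a CCAAT box and 42.6% a GC box. Neither window held the E2F letters TTTCCCGC or TTTGGCGC, the TATA box TATAAA, or the interferon response core (GAAA, 2 bases of any kind, GAAA), which were in 1.39%, 0.55%, 10.7% and 3.02% of windows. A match describes the letters only.

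SAMHD1, which overlaps C20orf118 on the chromosome, was low in every library. It had 2.64, 2.80 and 2.56 FPKM in resistant 17, 18 and 28, and 2.30, 2.0 and 1.88 FPKM in control 17, 18 and 28, so every resistant library lay above every control. Times relative depth, these values were whole multiples of 1 step within 0.02 of a step, which gives 126, 139 and 153 fragments in resistant 17, 18 and 28, and 105, 94 and 107 fragments in control 17, 18 and 28, up to a common factor. If that factor is 1, the 95% Poisson intervals overlapped in pool 17 (105 to 150 in resistant and 85.9 to 127 in control). They lay narrowly apart in pool 18 (117 to 164 and 76.0 to 115) and pool 28 (130 to 179 and 87.7 to 129). These fragments are not divided by relative depth, which was higher in the resistant library of each pool. It was 1.05 against 1, 1.09 against 1.03 and 1.31 against 1.25 in pools 17, 18 and 28. The intervals thus do not compare levels, and they cover counting error only. The means were 2.66 ± 0.120 FPKM in resistant and 2.06 ± 0.219 FPKM in control libraries (SD, n = 3 each), 1.29-fold higher in resistant libraries. By pool, SAMHD1 differed between resistant and control by 0.14 (pool 17), 0.34 (pool 18) and 0.31 (pool 28) on the log2 scale. For SAMHD1 the limma estimate was 0.26 (SE 0.15, adjusted p = 0.493). The pseudocount of 1 shrinks differences at this level: with a pseudocount of 0.1 it was 0.36 (adjusted p = 0.503).

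DCTD had 37.9, 36.5 and 45.0 FPKM in resistant 17, 18 and 28, and 50.3, 54.5 and 52.1 FPKM in control 17, 18 and 28, so every resistant library lay below every control. The means were 39.8 ± 4.6 FPKM in resistant and 52.3 ± 2.10 FPKM in control libraries (SD, n = 3 each), 1.31-fold lower in resistant libraries. By pool, DCTD differed between resistant and control by -0.40 (pool 17), -0.57 (pool 18) and -0.21 (pool 28) on the log2 scale. Across the 6 libraries, the estimate for DCTD was -0.39 (SE 0.16, 95% interval -0.76 to -0.02, unadjusted p = 0.0419), and it did not pass over all genes (adjusted p = 0.360). It lay between -0.49 and -0.30 in the 17 other settings, and the smallest adjusted p among them was 0.125, with array weights. The unadjusted limma p was under 0.05 in 9 of the 17, and was 0.0869 with the pool number as a block.

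ADA, the adenosine deaminase gene whose loss causes severe combined immunodeficiency, was the most abundant of the 10, and its level followed the pool number more than the group. It had 88.3, 79.5 and 142 FPKM in resistant 17, 18 and 28, and 91.3, 91.1 and 150 FPKM in control 17, 18 and 28. The libraries of pool 28 were high in both groups, 1.69 times the mean of the other 2 pools in resistant and 1.65 times in control libraries. The log2 difference between resistant and control was -0.05, -0.19 and -0.08 in pools 17, 18 and 28, and -0.11 over the pools (SE 0.30, 95% interval -0.81 to 0.60, adjusted p = 0.913). With the pool number as a block, which takes out such shared levels, the adjusted p was 0.850. For the tested genes around ADA on chromosome 20, up to 20 on each side, the median of log2(FPKM + 1) in pool 28 less the mean of the other pools was 0.09 in resistant and 0.04 in control libraries. With 10 genes on each side it was 0.35 in resistant and 0.05 in control libraries, so in resistant libraries the value depended on how many neighbours were taken.

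PNP, whose enzyme splits inosine, guanosine and their deoxy forms to base and sugar phosphate, was flat in controls and spread in resistant libraries. It had 27.9, 52.6 and 23.6 FPKM in resistant 17, 18 and 28, and 30.9, 33.1 and 31.6 FPKM in control 17, 18 and 28. Resistant 18 lay above all the controls, and resistant 17 and 28 lay below all of them. In fragments, up to a common factor, PNP had 990, 1942 and 1048 in resistant 17, 18 and 28, and 1047, 1155 and 1336 in control 17, 18 and 28. These fragments are not divided by relative depth and so do not compare levels between libraries. The SD was 15.6 FPKM over resistant and 1.12 FPKM over control libraries (n = 3 each). By pool, PNP differed between resistant and control by -0.14 (pool 17), 0.65 (pool 18) and -0.41 (pool 28) on the log2 scale. The fit over all libraries put PNP at 0.03 (SE 0.29, adjusted p = 0.976). Without resistant 18 it was -0.30 (unadjusted p = 0.0595, adjusted p = 0.231).

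**Figure D3:**
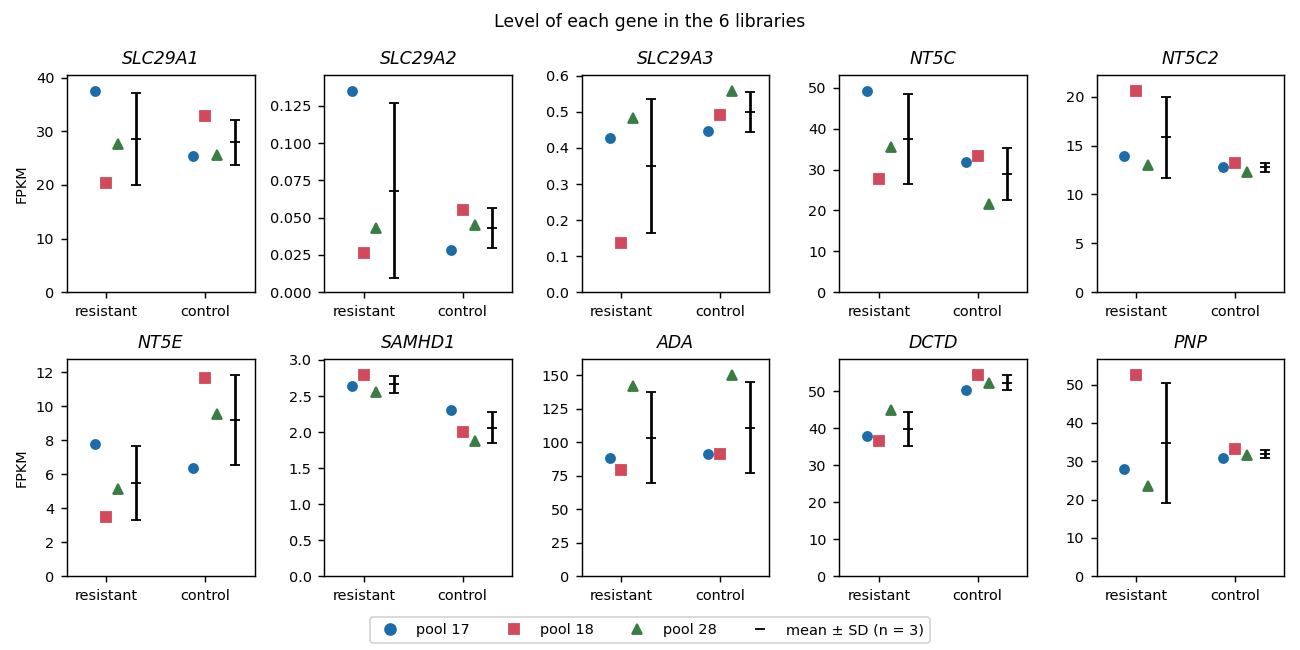
FPKM of the 10 genes in the 3 resistant and 3 control libraries, 1 panel per gene with its own axis from 0; circles, squares and triangles are pools 17, 18 and 28, and the bar is the mean with its SD (n = 3). SAMHD1 and DCTD are the panels in which the groups do not overlap, and in the ADA panel the triangle stands above the other pools in both groups (142 FPKM in resistant and 150 FPKM in control).

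The order of levels was nearly the same in both groups. In resistant libraries the means ran from ADA (103 ± 33.9 FPKM) over DCTD (39.8), NT5C (37.5), PNP (34.7), SLC29A1 (28.6), NT5C2 (15.9), NT5E (5.48), SAMHD1 (2.66) and SLC29A3 (0.349) to SLC29A2 (0.0681). In control libraries PNP (31.9 FPKM) stood above NT5C (28.9), and the other places were the same. In resistant libraries the ranges of neighbours overlapped all the way from DCTD to NT5C2, and the order of DCTD, NT5C, PNP and SLC29A1 was not resolved there. NT5C2 (highest 20.6 FPKM) overlapped SLC29A1 (lowest 20.4) but lay below PNP (lowest 23.6), NT5C and DCTD. In control libraries the ranges of neighbours overlapped only between PNP and NT5C and between NT5C and SLC29A1. Of all tested genes, 90.7% had a lower mean than ADA in resistant and 91.6% in control libraries, and 14.8% had a lower mean than SAMHD1 in resistant and 10.3% in control libraries.

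Ratios within a library set DCK against the nucleotidase genes NT5C and NT5C2 and the triphosphate hydrolase gene SAMHD1, and they do not depend on how a library is scaled. DCK itself had 12.1, 11.3 and 7.20 FPKM in resistant 17, 18 and 28, and 13.8, 15.4 and 13.3 FPKM in control 17, 18 and 28 (log2 difference -0.47, adjusted p = 0.399). The log2 ratio of DCK to NT5C was -2.03, -1.29 and -2.31 in resistant 17, 18 and 28, and -1.20, -1.12 and -0.70 in control 17, 18 and 28. The ratio of DCK to NT5C2 was -0.21, -0.87 and -0.86 in resistant 17, 18 and 28, and 0.11, 0.22 and 0.11 in control 17, 18 and 28. In FPKM, NT5C2 thus exceeded DCK in all 3 resistant libraries, and DCK exceeded NT5C2 by little in all 3 controls. Reads of CNNM2, which overlaps NT5C2, cannot be told apart in the shared stretch. The ratio of DCK to SAMHD1 was 2.19, 2.01 and 1.49 in resistant 17, 18 and 28, and 2.58, 2.94 and 2.83 in control 17, 18 and 28.

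All 3 ratios were lower in every resistant library than in every control. The difference of means was -0.87 for NT5C, -0.79 for NT5C2 and -0.88 for SAMHD1, each with p = 0.1 in a two-sided exact permutation test, the smallest that 3 against 3 libraries allow, and p = 0.1 after Benjamini-Hochberg adjustment over the 3 ratios. They share DCK, whose own groups did not overlap: its ratio to 33.9% of all tested genes was lower in every resistant library than in every control. Of the 8 tested genes followed here this held for 3, the same 3 as shown, which was near that share. SAMHD1 was also higher in every resistant library than in every control. The separation of its ratio and the permutation p of that ratio were therefore fixed by levels already given, and add nothing to them.

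**Figure D4:**
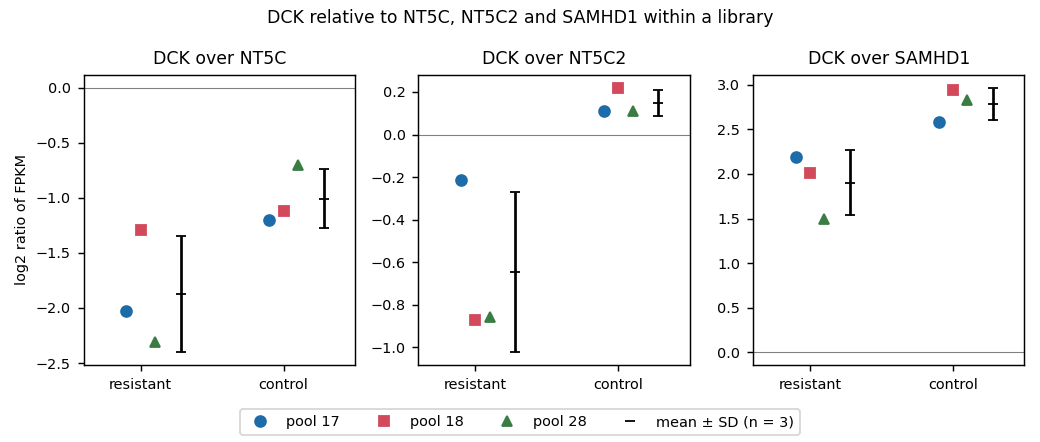
Log2 ratio of the FPKM of DCK to that of NT5C, NT5C2 and SAMHD1 within each library, for the 3 resistant and 3 control libraries (circles, squares and triangles are pools 17, 18 and 28; bars are the mean with its SD, n = 3). All resistant libraries lie below all controls in each panel, and for NT5C2 they lie on the other side of 0 (-0.87 to -0.21 in resistant and 0.11 to 0.22 in control).

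The genes were also set against their neighbours on the chromosome, the nearest tested genes on both sides in RefSeq order, up to 20 on each side. Differences are given here relative to the median of all tested genes of that pool, which was -0.03, 0.05 and -0.01 in pools 17, 18 and 28. Beside NT5C, on chromosome 17, 26 of 40 neighbours were above that median in pool 18 (median 0.32) while NT5C was at -0.32, and 30 of 40 were above it in pool 28 (median 0.20) with NT5C at 0.70. Around SAMHD1, on chromosome 20, 24 of 40 were below it in pool 18 (median -0.25) and 27 of 40 in pool 28 (median -0.23), while SAMHD1 was at 0.29 and 0.31. NT5E, on chromosome 6, was at -1.55 in pool 18 where its neighbours had a median of 0.25, and at -0.77 in pool 28 where they had -0.22. PNP on chromosome 14, NT5C2 on chromosome 10 and DCTD on chromosome 4 were at 0.60, 0.56 and -0.62 in pool 18, where the medians of their neighbours were 0.02, -0.13 and 0.08. SLC29A1 on chromosome 6 was at 0.58 and -0.71 in pools 17 and 18, with neighbours at -0.05 and 0.11.

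**Figure D5:**
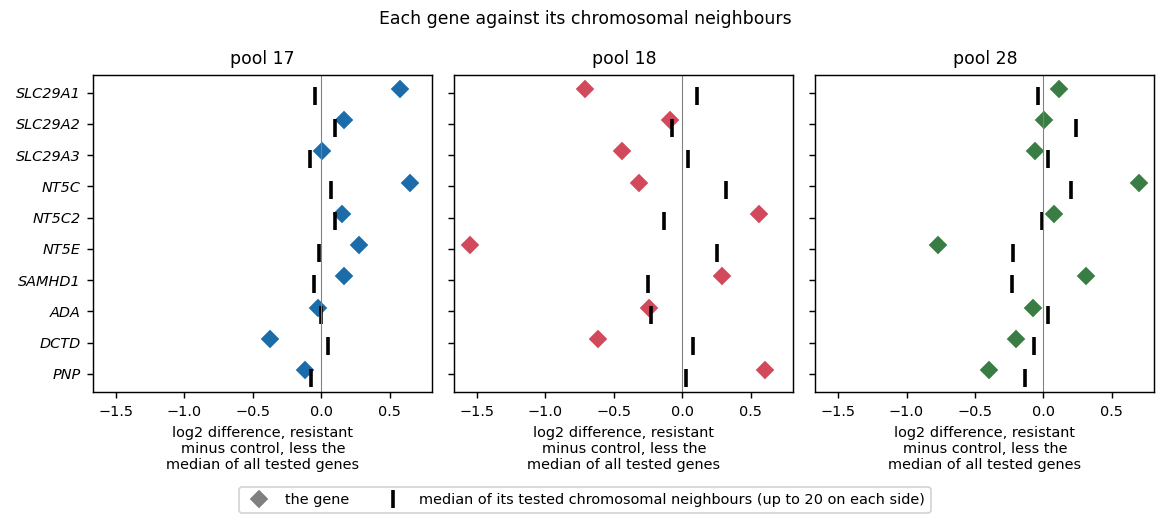
Log2 difference, resistant minus control, of each gene (diamonds) and the median over its tested chromosomal neighbours (black ticks), 1 panel per pool, each less the median of all tested genes of that pool. The ticks lie between -0.25 and 0.32 while the diamonds reach -1.55 for NT5E in pool 18 and 0.70 for NT5C in pool 28.

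Other genes of these pathways did not pass the test either. Of 64 further genes listed in 7 groups, 42 were tested, 0 passed over all genes, and 3 had an unadjusted p under 0.05, against the 13.1% of all genes; of these, 2 had higher and 1 had lower values in resistant libraries. The concentrative transporter genes SLC28A1, SLC28A2 and SLC28A3 stayed under 0.1 FPKM, and SLC43A3, which encodes a purine nucleobase transporter, had 57.5 ± 7.72 FPKM in resistant and 64.1 ± 5.83 in control libraries (SD, n = 3 each). Among 7 further nucleotidase genes tested (median log2 difference 0.21), the Golgi nucleoside diphosphatase gene ENTPD4 varied most between pools. It had 54.3, 5.98 and 24.2 FPKM in resistant 17, 18 and 28, and 7.52, 8.37 and 7.88 FPKM in control 17, 18 and 28 (log2 difference 1.26, SE 0.66, adjusted p = 0.461).

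Among 9 further deaminase and phosphorylase genes, CECR1, the gene of the secreted adenosine deaminase now named ADA2, had 3.36, 2.81 and 3.19 FPKM in resistant 17, 18 and 28, and 4.15, 7.53 and 7.95 FPKM in control 17, 18 and 28. Its groups did not overlap, with lower values in resistant libraries, as for 11.1% of all tested genes. The log2 difference was -0.83 (SE 0.24, limma unadjusted p = 0.00945, adjusted p = 0.232). TYMP, the thymidine phosphorylase gene, had 20.4, 14.7 and 29.6 FPKM in resistant 17, 18 and 28, and 11.7, 13.2 and 12.9 FPKM in control 17, 18 and 28 (0.68, unadjusted p = 0.0291, adjusted p = 0.322). ADAL, which encodes an adenosine deaminase-like enzyme, differed by 0.31 (adjusted p = 0.427).

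Of 12 purine salvage and interconversion genes, ADSS, the adenylosuccinate synthase gene, had the smallest p. It had 34.03, 33.0 and 25.4 FPKM in resistant 17, 18 and 28, and 22.0, 21.8 and 16.8 FPKM in control 17, 18 and 28 (0.58, SE 0.19, unadjusted p = 0.0178, adjusted p = 0.286), with differences of 0.61, 0.57 and 0.57 in pools 17, 18 and 28. HPRT1, which salvages hypoxanthine and guanine, differed by -0.70 (adjusted p = 0.470) and the adenosine kinase gene ADK by 0.30 (0.628). The 5 genes of de novo purine synthesis had medians of 0.19, 1.11 and -1.0 in pools 17, 18 and 28, with PFAS at 0.82, GART at 0.54 and ATIC at -0.46 over the pools. Of 7 nucleotide pool hydrolase genes, ITPA differed by 0.47, DUT by 0.35 and NUDT16 by 0.23 (median 0.19, 0 passed), and the adenosine receptor gene ADORA2A by -0.34.

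The 2 genes whose log2(FPKM + 1) followed each tested gene most closely over the 6 libraries were taken from 8164 tested genes whose mean FPKM reached 5. With so many candidates and 6 points, of which resistant 18 stood apart, high correlations are common, and Pearson r is given as a description. They were NFKBIE and UNC93B1 for SLC29A1 (r = 0.996 and 0.993), POLE4 and PHF5A for NT5C2 (0.999 and 0.997), ZDHHC14 and MEF2A for NT5E (0.995 and 0.988), XYLT2 and HINFP for SAMHD1 (0.997 for both), DTL and ELOVL1 for PNP (0.998 for both), and RPL39 and TMEM258 for DCTD (0.996 and 0.994). NT5C and ADA had less close companions, NEUROG2 and RPL36 for NT5C (0.984 and 0.980) and LIMK1 and SECISBP2L for ADA (0.976 and 0.973). Among the 8 tested genes themselves the highest r was 0.848, between NT5C2 and PNP, and the lowest was -0.908, between SAMHD1 and DCTD. Such an r includes the difference between the groups, which ran in opposite directions for SAMHD1 and DCTD.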

How the data were processed

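Total RNA of 6 libraries was measured, 3 from fludarabine-resistant and 3 from control pools of HG3 cells. The deposited values were FPKM, 1 per gene symbol, written with decimal commas, per the file headers. TopHat2 2.0.4, Cufflinks 2.2.1, HTSeq 0.6.1, DESeq2 and the build hg19 are named in the submitters' processing notes without their roles; annotation, strand and read length were not given in the sources used here.

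Counts were not given, so no count model was fitted. Genes that reached an FPKM of 1 in 3 or more libraries were tested with limma 3.58.1 (R 4.3.3) after log2(FPKM + 1) transformation (eBayes with trend, two-sided, Benjamini-Hochberg over 11307 genes, threshold 0.05), a script also tested on simulated data. The labels do not say that pools were separate cultures from the start, so p-values reflect the variation among these libraries. Pool numbers were read as pairs, as the series' design text describes them; deviations from group means correlated at 0.148, 0.0892 and -0.0243 in pools 17, 18 and 28. The reported fit had no block. Relative depth came from low values, and absolute depth is unknown. Where a gene's 6 values times relative depth were whole multiples of 1 step (3 of the 10 genes), the multiples are given; intervals cover counting error only.

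Gene order, overlaps and upstream sequences came from RefSeq on GRCh38.p14; since the files used hg19, only those windows have coordinates. For 9 of the 10 genes a window was found. The genes, lists and tests were chosen with earlier results of these data known. All 10 genes were named, with up to 3 genes of smallest p per list. Values of SLC28 genes, and the markers named singly, were picked after they were seen. Alternatives were other pseudocounts (0.1 or 5), no filter, median centring, quantile normalization, array weights, the pool as a block, without and with GC content and length trends removed (GENCODE v29, 91.9% of tested genes matched), and leaving out each library or pool with the same genes tested.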

Additional observations from a re-analysis of the deposited data

How the results depend on the processing

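Of the 10 genes, 0 passed the adjusted threshold in each of the 17 alternatives, and DCTD, NT5E, SAMHD1, NT5C and NT5C2 kept the sign of their log2 difference in all of them. The sign of 3 genes near 0 turned, with no call in either direction. SLC29A1 was at 0.0020 with a pseudocount of 5, 0.16 with array weights and 0.33 without pool 18, and ran from -0.21 to 0.21 with 1 library left out. ADA was at 0.031 with array weights and ran from -0.36 to 0.13 with 1 library left out. PNP was at -0.048 with quantile normalization, -0.25 with array weights and -0.28 without pool 18, and ran from -0.30 to 0.26 with 1 library left out. With the pool number as a block and GC and length trends removed, PNP was at -0.016. With the block alone, 3 genes of all tested passed in place of 4, and no call among the 10 genes changed; with GC and length trends removed as well, 0 passed (limma, 1585 with an unadjusted p under 0.05). Over all tested genes, 301 passed with array weights and 18 without pool 18; with 1 library left out, 3 (without control 28) to 13 (without resistant 18) passed, and 8 without resistant 17. The number with an unadjusted p under 0.05, 1484 in the reported fit, was 2998 with array weights and 545 without pool 28, and from 729 (without control 28) to 2640 (without resistant 18) with 1 library left out, with 981 without control 18. The cause was not tested. The ratios of DCK kept their sign throughout. With 10 neighbours on each side in place of 20, the medians of differences moved by under 0.2 except in pool 18 around SLC29A2 (0.16) and SLC29A3 (-0.19). The median level around ADA, pool 28 less the other pools, was 0.35 in place of 0.09 in resistant libraries, an alternative chosen after seeing the data. Depth limits SLC29A2, with 1 to 5 steps in a library.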
